A study of Homo sapiens with 2 samples.

Results

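The SIX-family homeobox genes were followed here through 5 members, SIX2, SIX3, SIX4, SIX5 and SIX6, among 64449 annotated genes. CpG methylation was measured by whole-genome bisulfite sequencing (WGBS), in which unmethylated cytosines are converted and read as T, in HEK293T cells, a transformed line from human embryonic kidney. There were 2 libraries. The first, Neg, is the negative control, which the study describes as cells without the lentiviral constructs. The second, dCas9+3A+HOXA5, came from cells given a nuclease-dead Cas9 (dCas9) with SunTag peptide repeats, an scFv fragment linked to DNMT3A, which methylates DNA and is drawn to those repeats, and a guide RNA against HOXA5. A collection time of 30 days after infection and sorting for fluorescence are stated in a treatment text that both samples carry, so the title alone tells them apart. Each gene was read in its promoter (1 kb either side of the annotated start), its body and the 5 kb on either side of the body, with hg19 coordinates and GENCODE genes. A CpG was used if at least 1 read covered it in both libraries. These loci hold 2837 reference CpGs, of which 1895 (66.8%) were read in both libraries and 206 reached 5 reads in each, out of 14699127 CpGs read in both libraries genome-wide. The guide does not target any of the 5 genes, and the loci contained 0 sites before an NGG within 4 mismatches of its 20 bases. The comparison therefore asks what the DNMT3A-recruiting cells looked like at homeobox genes away from the target.

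SIX-family proteins are transcription factors that carry a SIX-type domain next to a homeodomain. They act with the EYA co-activators, which have no DNA-binding domain of their own, and with DACH co-factors, in a network first described in the fly eye. The family falls into subfamilies. SIX3 and SIX6 act in the forebrain, eye and pituitary. SIX4 and SIX5 form another pair, with roles in muscle, and SIX5 lies next to DMPK, the gene of myotonic dystrophy. SIX2 keeps nephron progenitors of the embryonic kidney in a self-renewing state. CpG-dense promoters of such developmental genes are usually free of methylation in normal tissue, whereas cultured and transformed cells often carry methylation at some of them.

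The CpG content of the sequence next to the gene start is shown for the 3 members with a match in the RefSeq promoter table used here (GRCh38.p14). SIX3 and SIX5 are named only. Each sequence is the 250 bases before the gene start, written 5′ to 3′ on the strand of the gene, matched the GRCh37 genome exactly at 1 place, and carries its CpGs in capitals.
SIX2, chr2:45236592-45236841 (GRCh37), minus strand: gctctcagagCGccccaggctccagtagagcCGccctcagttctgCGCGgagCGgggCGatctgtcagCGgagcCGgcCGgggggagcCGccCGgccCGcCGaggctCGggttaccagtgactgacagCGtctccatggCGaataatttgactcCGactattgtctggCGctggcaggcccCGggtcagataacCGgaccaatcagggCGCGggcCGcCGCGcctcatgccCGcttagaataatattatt
SIX4, chr14:61191070-61191319 (GRCh37), minus strand: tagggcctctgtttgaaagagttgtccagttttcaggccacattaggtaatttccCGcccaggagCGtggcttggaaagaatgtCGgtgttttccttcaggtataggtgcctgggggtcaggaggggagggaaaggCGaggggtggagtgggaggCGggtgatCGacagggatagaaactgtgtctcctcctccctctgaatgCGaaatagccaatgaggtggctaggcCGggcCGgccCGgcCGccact
SIX6, chr14:60975614-60975863 (GRCh37), plus strand: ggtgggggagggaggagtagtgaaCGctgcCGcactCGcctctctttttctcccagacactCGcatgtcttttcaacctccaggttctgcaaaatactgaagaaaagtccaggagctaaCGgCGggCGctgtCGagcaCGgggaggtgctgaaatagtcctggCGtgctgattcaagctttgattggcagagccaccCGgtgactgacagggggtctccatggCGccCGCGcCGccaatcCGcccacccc
The SIX2 sequence holds 26 CpGs, at 0.967 times the number expected from its base composition. SIX6 holds 16 CpGs (0.711 times) and SIX4 11 CpGs (0.560 times). Reads are summed over CpGs here and throughout, so that a read counts once at each CpG it covers. In SIX2, Neg had 0 of 67 and dCas9+3A+HOXA5 0 of 92 reads methylated over the 22 CpGs read in both. In SIX4, 0 of 22 and 0 of 23 reads were methylated over 9 CpGs. In SIX6 the picture was the opposite, with 20 of 22 methylated reads in Neg and 11 of 11 in the other library over 10 CpGs. SIX2 and SIX6 share 2 runs of at least 10 letters in the same orientation. The first, GTGACTGACAG, starts 133 bases before the SIX2 start and 51 before the SIX6 start, and the second, GTCTCCATGGCG, starts 121 and 37 bases before. On either strand, the first is found in 23 (0.0655%) and the second in 16 (0.0456%) of the 35116 promoters of the table, searched over the whole of each entry. The only CpG inside these runs closes the second one. Thus a letter-for-letter match of 11 and 12 bases stood in an unmethylated promoter at SIX2 and in a methylated one at SIX6.

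Of all 5 promoters, 2 were highly methylated in both libraries and 3 were close to unmethylated, with no promoter between (the plot of promoter levels). The mean over the CpGs of SIX3 was 95.2% for Neg and 93.2% for dCas9+3A+HOXA5. SIX6 had 92.4% and 88.9%. SIX2 had 9.15% and 1.25%, SIX4 3.79% and 7.73%, and SIX5 0.201% and 2.03%. The split does not follow chromosomal neighbourhood. SIX3 and SIX2 lie on chromosome 2 with starts 67.8 kb apart, and SIX6 and SIX4 lie on chromosome 14 with starts 215.2 kb apart, so that each of these chromosomes carries 1 methylated and 1 unmethylated member. Among 10533 protein-coding promoters with at least 50 CpGs read in both libraries, a class to which all 5 members belong, 787 (7.47%) were above 80% in both libraries and 7249 (68.8%) under 20% in both.

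**Figure D1:**
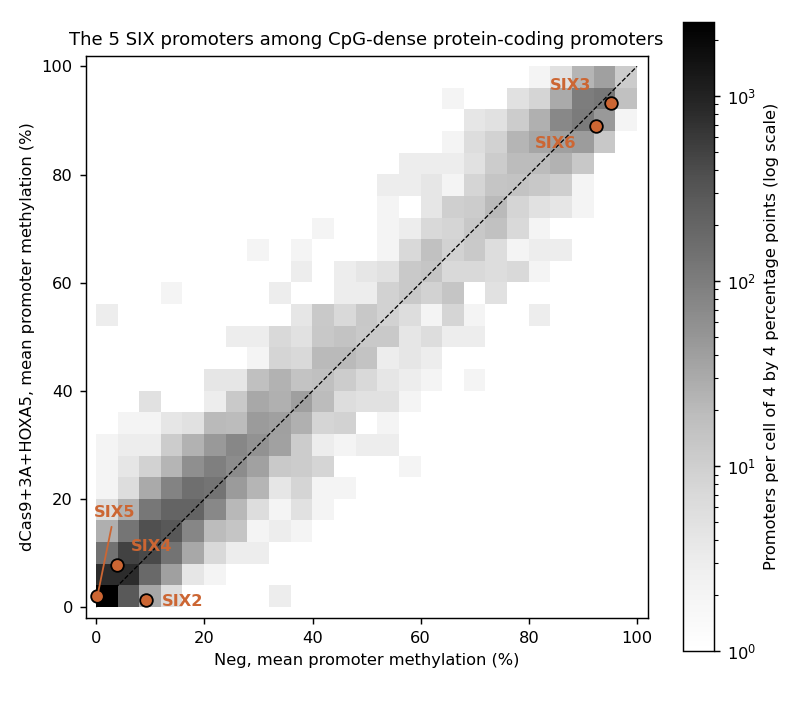
Mean promoter methylation in Neg (x axis, %) against dCas9+3A+HOXA5 (y axis, %) for the 5 SIX-family genes (orange) among 10533 protein-coding promoters with at least 50 covered CpGs (grey cells, number of promoters on a log scale; the dashed line marks equal levels). SIX3 and SIX6 lie in the upper right corner at 88.9% or more in both libraries, and SIX2, SIX4 and SIX5 in the lower left at 9.15% or less.

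Each group is 1 library, so no difference can be set against a spread between replicates. Reads summed over a window were compared by Fisher's exact test (two-sided) with Benjamini-Hochberg adjustment over all windows of the same kind. What is compared is this pair of libraries rather than the conditions, and the test counts CpGs on the same DNA molecule as independent, so its p-values are too small. A window was called when the mean over CpGs differed by more than 20 percentage points and the adjusted p was under 0.01. By this rule 0 of 5 promoters were called in either direction, where 2.31% of 53244 promoters were called higher and 0.588% lower genome-wide. The median difference was -1.99 points over the 5 promoters and 2.54 points over all promoters tested.

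SIX3 and SIX6 promoters were methylated at most of their CpGs. At SIX3 (chr2:45167841-45169841), Neg had 274 of 291 reads methylated (90.8 to 96.3%, a 95% Wilson interval) and dCas9+3A+HOXA5 213 of 229 (89.0 to 95.7%). The difference in the share of methylated reads had an interval of -5.75 to 3.09 points (adjusted p = 0.840, Fisher's exact test). Of its 71 CpGs, 51 were fully methylated (every read) in both libraries and 0 were unmethylated (no read) in both. At SIX6 (chr14:60974864-60976864), 278 of 305 reads (87.4 to 93.8%) and 204 of 230 reads (84.0 to 92.2%) were methylated, with an interval of the difference from -7.91 to 2.64 points (adjusted p = 0.669, Fisher's exact test). There, 55 of 80 CpGs were fully methylated in both libraries. The intervals cover counting error only. Like the test, they count CpGs on the same DNA molecule as independent, so they are too narrow, here and below. The antisense gene SIX3-AS1, whose start lies 214 bp from that of SIX3, gave 95.9% and 93.8%, and 5 kb upstream of SIX3 the levels were 84.3% and 83.2%.

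SIX4 and SIX5 promoters were at the other end. At SIX5 (chr19:46271510-46273510), Neg had 2 of 474 methylated reads (0.116 to 1.52%) and dCas9+3A+HOXA5 had 9 of 682 (0.696 to 2.49%), and 105 of 112 CpGs were unmethylated in both libraries. The interval of the difference ran from -0.370 to 2.11 points (adjusted p = 0.482, Fisher's exact test). At SIX4 (chr14:61190069-61192069), 11 of 230 reads (2.69 to 8.36%) and 21 of 275 reads (5.05 to 11.4%) were methylated, with an interval from -1.56 to 7.15 points (adjusted p = 0.467, Fisher's exact test). Of its 69 CpGs, 60 had no methylated read in either library, and every read was methylated at 4 CpGs in dCas9+3A+HOXA5 and at 1 in Neg.

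SIX2, the nephron progenitor gene, was the only member promoter with an adjusted p under 0.01. In its promoter (chr2:45235591-45237591), Neg had 49 of 389 methylated reads (9.66 to 16.3%) and dCas9+3A+HOXA5 had 3 of 251 (0.407 to 3.45%), with an interval of the difference in share from -15.2 to -7.70 points (adjusted p = 1.86e-06, Fisher's exact test). The mean over its 120 CpGs differed by -7.90 points, under the limit of 20 points for a call. An adjusted p under 0.01 alone was reached by 5.65% of all promoters in the higher and 1.92% in the lower direction. Among 16294 promoters under 20% in Neg, 439 (2.69%) had a difference as low as that of SIX2, and the median over all 16294 was 0.998 points. Promoters whose Neg level was smaller than this fall could not reach it but are counted in the 16294. With 1 CpG per 150-bp bin, so that neighbouring CpGs of a read are not counted together, the difference was -11.1 points over 12 CpGs (adjusted p = 0.113, Fisher's exact test), and with 2 kb either side of the start it was 0.534 points over 161 CpGs. With 0.5 kb either side it was -2.17 points over 46 CpGs (adjusted p = 0.829, Fisher's exact test). When CpGs needed at least 3 reads it was -23.3 points, past the 20-point limit, over 10 CpGs (adjusted p = 0.0185, Fisher's exact test). The size of the SIX2 value and its adjusted p thus depended on the window and the read minimum.

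The reads behind the SIX2 value sat in 1 place, which is shown because it carries most of the difference. Of the 49 methylated reads in Neg, 45 fell in 255 bases of the coding part of exon 1 (CpGs in capitals, found after the values were seen). The stretch begins and ends at CpGs with methylated reads in Neg, so a high Neg level inside it follows from that choice. A CpG just outside it (chr2:45235795) had 0 of 2 methylated reads in Neg and 1 of 2 in dCas9+3A+HOXA5.
SIX2 exon 1 stretch, chr2:45235818-45236072 (GRCh37), minus strand: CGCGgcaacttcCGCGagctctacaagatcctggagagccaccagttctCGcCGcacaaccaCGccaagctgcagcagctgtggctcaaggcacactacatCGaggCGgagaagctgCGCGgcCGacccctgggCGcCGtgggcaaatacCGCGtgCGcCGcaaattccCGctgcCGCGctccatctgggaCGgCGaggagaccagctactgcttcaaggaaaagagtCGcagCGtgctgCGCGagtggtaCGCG
It holds 29 CpGs, 28 of them read in both libraries. In Neg, 45 of 138 reads were methylated, spread over 24 of these 28 CpGs, for a mean of 34.3%, and in dCas9+3A+HOXA5 0 of 53 reads were. No CpG of the stretch was read more than 8 times in Neg or 4 times in dCas9+3A+HOXA5, so few molecules lie behind these counts. By contrast, the 250 bases before the start, printed above, had no methylated read in either library. Over the whole promoter, 92 of 120 CpGs were unmethylated in both libraries, 26 had a methylated read in Neg only and 2 in dCas9+3A+HOXA5 only.

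**Figure D2:**
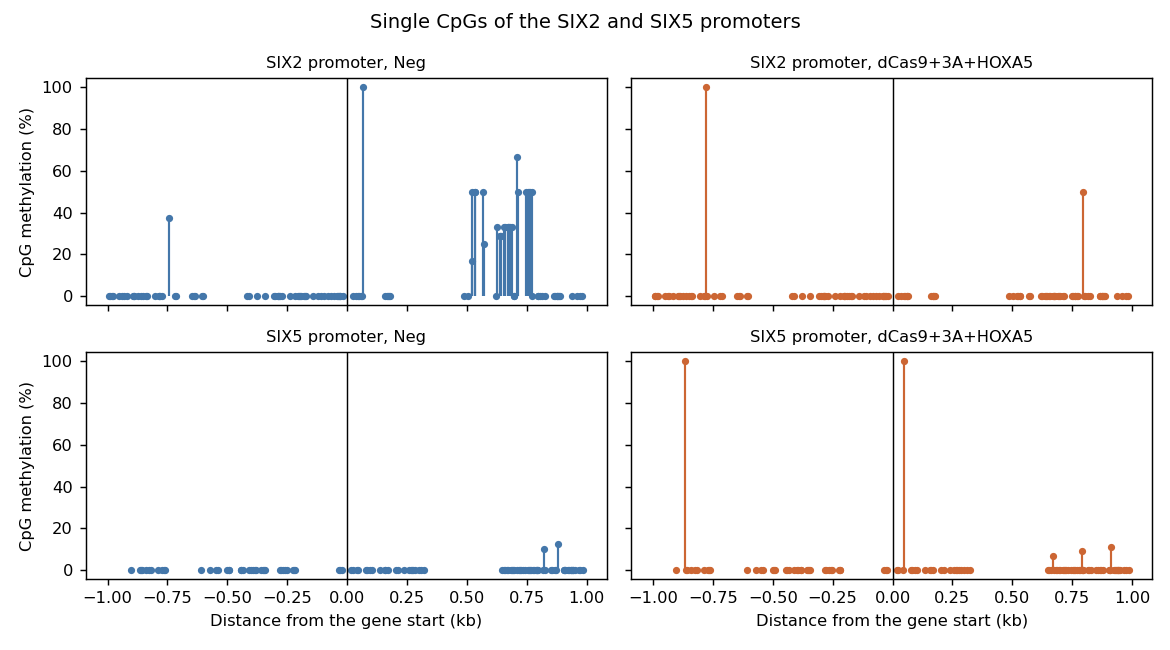
Methylation of each CpG (y axis, %) of the SIX2 and SIX5 promoters against its distance from the gene start along the gene (x axis, kb), in Neg (blue) and dCas9+3A+HOXA5 (orange). In SIX2, 24 CpGs of the exon 1 stretch carry methylated reads in Neg and none of them does so in dCas9+3A+HOXA5, whereas SIX5 has 105 of 112 CpGs at zero in both libraries. The bounds of that stretch were set by methylated reads in Neg.

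In the gene bodies 0 of 5 members were called, where 3.81% of 44567 bodies were called higher and 0.534% lower. The median difference was 1.51 points for the members and 4.18 points for all bodies. SIX3 had 93.1% and 93.3%, with 540 of 589 and 394 of 422 reads methylated (adjusted p = 0.488, Fisher's exact test). SIX6 had 91.1% and 93.9%, with 595 of 660 and 382 of 407 reads (adjusted p = 0.0892, Fisher's exact test). Thus the methylated state of this pair was not limited to the promoter, and in SIX6 it held in every transcript part, from 96.8% and 99.0% in the 5′ UTR to 88.5% and 95.2% in the 3′ UTR.

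SIX4 and SIX5 bodies were mixed, with low levels near the start. SIX4 had 24.4% and 25.9% by the mean over 189 CpGs, with 0% in both libraries over its 5′ UTR and 83.1% and 92.2% over its 3′ UTR. By summed reads its difference had the other sign, 195 of 669 against 144 of 627 (adjusted p = 0.0307, Fisher's exact test). SIX5 had 20.1% and 25.8% over 203 CpGs, with 156 of 1030 and 196 of 998 reads (adjusted p = 0.0230, Fisher's exact test). Its coding exons had 22.1% and 30.6% and its 5′ UTR 0% and 4.35%, whereas its 3′ UTR, at intermediate levels, had 55.9% and 46.2%.

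SIX2 was the only member body with an adjusted p under 0.01 (0.00117, Fisher's exact test), which 27.6% of all bodies reached in the higher and 3.91% in the lower direction. Its mean over 140 CpGs was 50.5% and 49.0%, yet the share of methylated reads was 54.6% (247 of 452) in Neg and 67.2% (256 of 381) in dCas9+3A+HOXA5, so the sign depended on how CpGs were weighted. Both ends of the body were therefore read apart, split after the values were seen. The 3′ side had 93.0% and 99.5% over 62 CpGs, and the 5′ side 16.7% and 8.76% over 78 CpGs. The methylated 3′ side received 45.4% of the reads over the body in Neg and, in dCas9+3A+HOXA5, 63.2%, so that the summed share moved with where the reads fell.

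**Figure D3:**
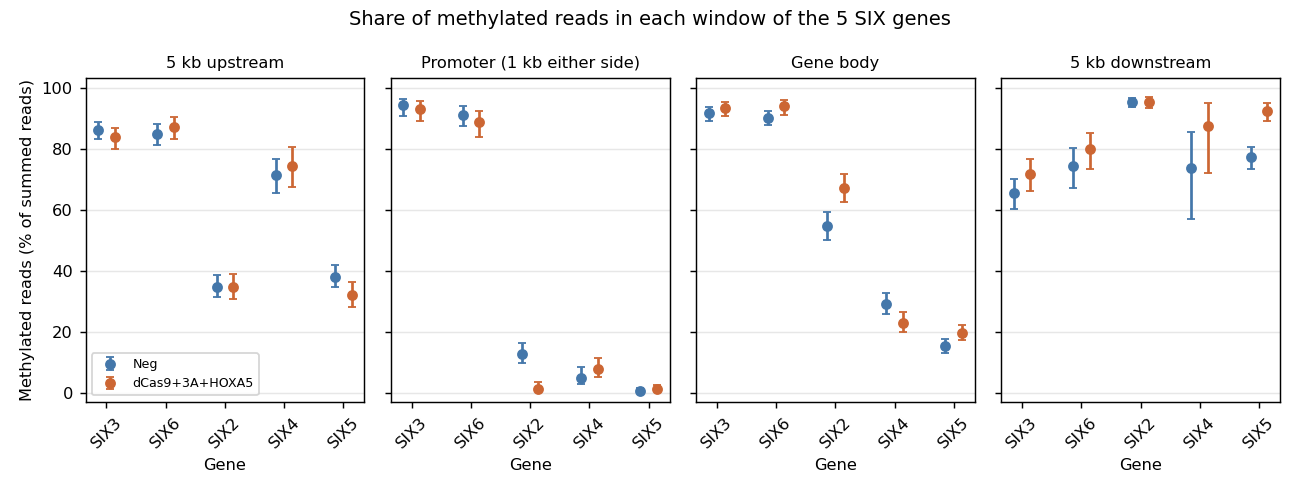
Share of methylated reads (y axis, % of reads summed over a window) of the 5 SIX-family genes in 4 windows, for Neg (blue) and dCas9+3A+HOXA5 (orange). Bars are 95% Wilson intervals and cover counting error only. They count CpGs on the same DNA molecule as independent and are too narrow. SIX3 and SIX6 lie above 88% in promoter and body, and the downstream window of SIX5 goes from 77.1% to 92.4%.

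Outside the genes 0 of 10 flanks were called, where 3.67% of upstream and 3.67% of downstream windows were called higher and 0.435% and 0.439% lower. SIX5 had the only flank with an adjusted p under 0.01. In its 5 kb downstream (chr19:46263043-46268042), within which the body of MEIOSIN ends, Neg had 391 of 507 methylated reads (73.3 to 80.6%) and dCas9+3A+HOXA5 had 304 of 329 (89.0 to 94.8%). The means over 89 CpGs were 80.3% and 91.1%, and the share of reads was higher by 10.46 to 19.8 points (adjusted p = 3.29e-07, Fisher's exact test). A single CpG (chr19:46264177) with 29 of 69 methylated reads in Neg, and 1 of 1 in the other library, made up 13.6% of the Neg reads. Without it, a choice made after the values were seen, 362 of 438 and 303 of 328 reads were methylated, and the difference in share went from 15.3 to 9.73 points (interval 5.03 to 14.2 points) and that of the means to 10.2 points (adjusted p = 0.00157, Fisher's exact test). With 1 CpG per 150-bp bin, which kept that CpG with its 69 Neg reads, the difference of the means was 13.3 points over 30 CpGs (adjusted p = 1.92e-05, Fisher's exact test). Read minimums left that CpG out, since dCas9+3A+HOXA5 read it only 1 time. A minimum of 3 reads gave 9.12 points over 53 CpGs (adjusted p = 0.0155, Fisher's exact test). A minimum of 5 reads gave 6.03 points over 21 CpGs (adjusted p = 0.350, Fisher's exact test). Genome-wide, 9.15% of downstream windows passed the adjusted p alone as higher and 1.38% as lower, and 10.5% and 2.17% of upstream windows did. The 5 kb upstream of SIX5, which contain the 3′ end of DMPK, had means of 31.6% and 33.8%, but the summed reads had the other sign, 266 of 699 against 150 of 469 (adjusted p = 0.111, Fisher's exact test).

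The 5 kb downstream of SIX4 had the largest mean difference among these member windows, 61.8% and 93.3%, but only 12 CpGs were read, with 25 of 34 and 28 of 32 reads methylated (adjusted p = 0.417, Fisher's exact test). When the window was widened to 10 kb, 33 CpGs differed by 33.5 points and it was called higher (adjusted p = 0.000448, Fisher's exact test), as were 5.4% of all 10-kb downstream windows. The upstream flanks of the other members had 33.2% and 36.7% at SIX2, 66.2% and 69.9% at SIX4, and 83.2% and 88.7% at SIX6. Downstream flanks had 96.5% and 94.0% at SIX2, 65.3% and 71.2% at SIX3, and 66.1% and 69.4% at SIX6. Their adjusted p ranged from 0.249 to 1 by Fisher's exact test.

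To see where along each locus the levels changed, 500-bp tiles were compared. Of 151 tiles, 107 had at least 5 CpGs read in both libraries and 0 were called, where 1.05% of 1030139 tiles were called higher and 0.397% lower genome-wide. The mean was higher in dCas9+3A+HOXA5 in 68 of these 107 tiles and lower in 31, where 60.1% of all tiles were higher and 34.9% lower, and the median difference was 2.70 points, beside 3.95 points over all tiles. Of the members' tiles, 3 had an adjusted p under 0.01 alone, 2 higher and 1 lower, while 1.18% of all tiles did so as higher and 0.455% as lower. With the difference taken from summed reads, an alternative added after the values were seen, 2 were called higher and 0 lower, beside 1.13% and 0.433% of all tiles. SIX5 had the highest median of the members, with 22 of 27 tiles higher and a median difference of 7.76 points. SIX3 had 10 of 23 tiles higher and a median of -0.957 points.

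**Figure D4:**
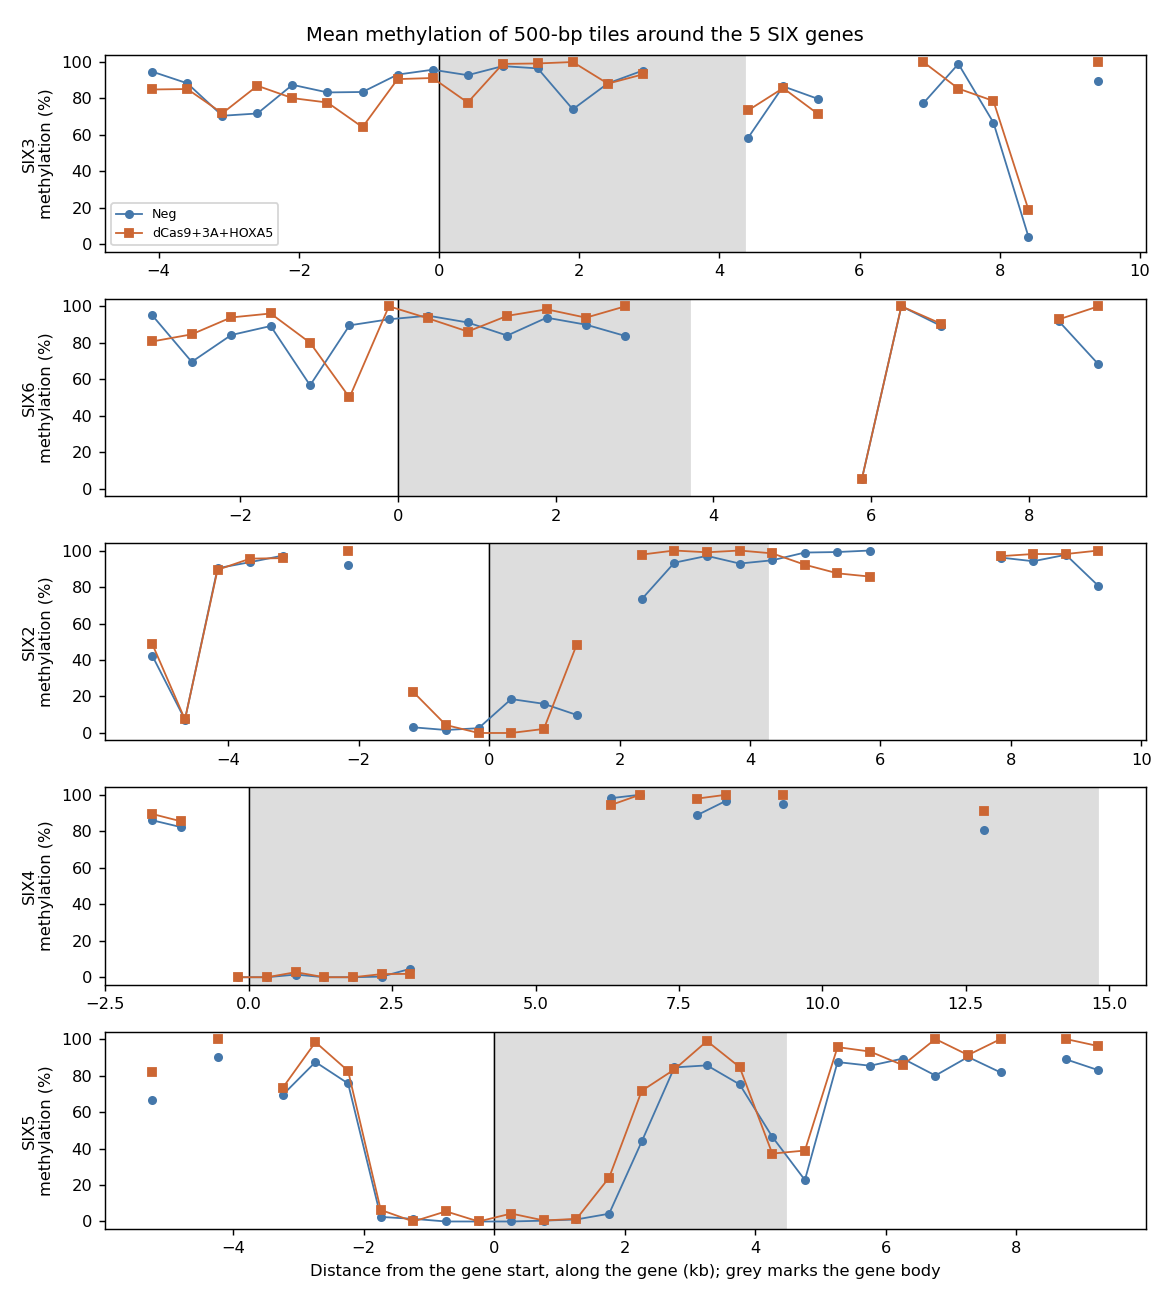
Mean methylation (y axis, %) of 500-bp tiles with at least 5 CpGs read in both libraries, against the distance of the tile centre from the gene start along the gene (x axis, kb; grey marks the gene body), for Neg (blue circles) and dCas9+3A+HOXA5 (orange squares). Lines join adjacent tested tiles. SIX2, SIX4 and SIX5 have a low stretch around the start, and SIX3 and SIX6 are high there in both libraries.

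Around the starts of SIX2, SIX4 and SIX5 the tiles form low stretches, defined here after the values were seen as runs of at least 5 tiles under 20% in Neg with at least 3 CpGs each. The SIX4 stretch (chr14:61187501-61191500, 8 tiles) had 1.07% and 1.06% inside, and its outermost tiles were at 0% in both libraries. The next tile upstream (chr14:61191501-61192000), which belongs to the SIX4 promoter, had 8 of 18 and 16 of 16 methylated reads, with means of 47.9% and 100%, but its 4 CpGs were too few for the test. The SIX5 stretch (chr19:46270501-46274500, 8 tiles) had 0.507% and 1.98% inside. Its outermost tile on the side of the gene body went from 4.25% to 24.1%, and that on the side of DMPK from 2.50% to 6.34%. The SIX2 stretch (chr2:45235001-45238000, 6 tiles) had 9.71% and 1.64% inside, while its outermost tiles went from 9.92% to 48.1% in the intron and from 3.10% to 22.4% upstream. With these tiles the mean inside the SIX2 stretch was lower and both edge means were higher in dCas9+3A+HOXA5, which did not hold with 250-bp tiles. Over 5263 such stretches genome-wide, the edge tiles differed by 7.28 points on average with a median of 0, and 16.3% of edges were above 20 points. These stretches were chosen by their level in Neg, so a low Neg value entered the choice. With 250-bp tiles the SIX2 stretch began inside exon 1 (chr2:45236251-45238000), with edge differences of 0 and 50 points, and the mean inside went the other way, with 1.79% and 4.45%. The 50-point edge tile, with 12.5% in Neg and 62.5% in dCas9+3A+HOXA5, had fewer than the 5 CpGs needed for a test.

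The gene-body edge at SIX5 was called under several other tile settings. The 500-bp edge tile (chr19:46270501-46271000), in an intron, had 7 of 172 reads methylated for Neg and 12 of 44 for dCas9+3A+HOXA5, and its means differed by 19.8 points, just under the limit (adjusted p = 0.00245, Fisher's exact test). By summed reads it differed by 23.2 points and was called higher. With 250-bp tiles its part farther from the SIX5 start (chr19:46270501-46270750) was called higher, from 8.08% to 45.7% (adjusted p = 0.00218, Fisher's exact test), as were 0.889% of all 250-bp tiles. With 1000-bp tiles chr19:46270001-46271000, which is 587 bases of intron and 413 of coding exon, rose from 24.1% to 47.8% over 38 CpGs, with 27 of 217 and 57 of 108 reads methylated (adjusted p = 5.54e-11, Fisher's exact test). Besides the edge tile it holds chr19:46270001-46270500, with 20 of 45 and 45 of 64 reads methylated (adjusted p = 0.13, Fisher's exact test). The edge tile, low in Neg, gave 172 of the 217 reads in Neg and 44 of the 108 in dCas9+3A+HOXA5. The summed share and its adjusted p thus moved also with where the reads fell. Another 1000-bp tile, downstream of SIX5 (chr19:46264001-46265000), was called with 48 of 96 and 21 of 21 methylated reads over 9 CpGs (adjusted p = 0.000541, Fisher's exact test), but 69 of its 96 Neg reads lay at the deeply read CpG described above. Without that CpG it had 19 of 27 and 20 of 20 and was not called (adjusted p = 0.133, Fisher's exact test). Genome-wide, 1.43% of 1000-bp tiles were called higher. With a minimum of 3 reads the 500-bp edge tile was itself called, 6.46% and 32.1% over 8 CpGs (adjusted p = 0.00443, Fisher's exact test), as were 1.8% of all such tiles.

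The upstream edge of SIX2 had 3 of 116 and 10 of 40 methylated reads (adjusted p = 0.00579, Fisher's exact test), 22.4 points apart, so that it too was called by summed reads, and its intron edge 4 of 28 and 10 of 20 (adjusted p = 0.138, Fisher's exact test). A tile with 311 bases of exon 1 and 189 of intron (chr2:45235501-45236000) had 30 of 146 and 2 of 85 (adjusted p = 0.00406, Fisher's exact test). With 250-bp tiles its part nearer the SIX2 start (chr2:45235751-45236000) fell from 26.6% to 1.85% (adjusted p = 0.00174, Fisher's exact test), as did 0.441% of all 250-bp tiles. The next 500-bp tile (chr2:45236001-45236500), all in exon 1, had 15 of 48 and 0 of 15 (adjusted p = 0.156, Fisher's exact test). Among tiles with at least 5 CpGs, SIX3 and SIX6 each had 1 under 20% in Neg, downstream of the gene. That of SIX3 (chr2:45177001-45177500, 15 CpGs) had 4.33% and 19.1% (adjusted p = 0.234, Fisher's exact test), and that of SIX6 (chr14:60981501-60982000, 18 CpGs) 5.56% in both libraries. Another 2 SIX6 tiles of 2 CpGs each, too few for the test, were under 20% in Neg, 1 downstream with 0 of 4 methylated reads and 1 upstream with 2 of 10. The most negative of the 107 tested tiles was upstream of the SIX6 start, inside the SIX6 promoter (chr14:60975001-60975500, 7 CpGs), with 89.5% and 50% and reads of 31 of 34 and 8 of 15 (adjusted p = 0.0900, Fisher's exact test). Under a minimum of 5 reads, 1 tile upstream of SIX3 (chr2:45164501-45165000) fell from 94.4% to 48.0% over 6 CpGs (adjusted p = 0.000967, Fisher's exact test), as did 1.08% of all tiles under that minimum. With all 29 of its CpGs it had 94.7% and 84.9% (adjusted p = 0.0317, Fisher's exact test). The lowest adjusted p values of SIX3 and SIX6 tiles over all CpGs, none of them called, were in 3 higher tiles. Of these, 1 (chr14:60984501-60985000) overlaps the downstream end of the SIX6 locus but lies mostly beyond it. It had 18 of 29 and 25 of 25 reads methylated (adjusted p = 0.0185, Fisher's exact test). Another 2 lie downstream of SIX3 (chr2:45175501-45176000 and chr2:45176501-45177000), with 25 of 38 and 26 of 26 and with 34 of 64 and 56 of 67 (adjusted p = 0.0195 and 0.0146, Fisher's exact test).

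Single CpGs gave no call. Of the 206 CpGs that reached 5 reads in each library, 30 at SIX2, 33 at SIX3, 28 at SIX4, 71 at SIX5 and 44 at SIX6, 0 were called by Fisher's exact test, where 0.00735% of 1319472 CpGs were called higher and 0.000152% lower. Only 11 of the 206 had at least 8 reads in each library. At such depths few CpGs could reach an adjusted p under 0.01 whatever their levels, so the absence of calls says little about them. An unadjusted p under 0.05 was found at 1 CpG of SIX3 and 1 of SIX4, both higher in dCas9+3A+HOXA5, where 3.62% of all CpGs tested had such a p as higher and 1.88% as lower.

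Depth bears on all these values. The Neg library held 89774283 reads summed over CpGs and dCas9+3A+HOXA5 46703423, a ratio of 0.520. Relative to that ratio, dCas9+3A+HOXA5 was covered 1.37 times at the SIX2 locus, 1.28 times at SIX4, 1.27 times at SIX5, 1.10 times at SIX3 and 1.08 times at SIX6. Mean reads per listed CpG ranged from 3.51 to 4.60 in Neg and from 2.96 to 3.93 in dCas9+3A+HOXA5 over the 5 loci. With Neg thinned to the ratio of the libraries, the SIX2 promoter differed by -8.08 points (adjusted p = 0.00193, Fisher's exact test) and the downstream flank of SIX5 by 12.5 points (adjusted p = 4.42e-06, Fisher's exact test). The thinning did not leave out the deeply read CpG downstream of SIX5. The cell type cannot be checked against marker expression in methylation data.

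The genes that SIX-family proteins work with, and other nephron progenitor genes, were read at their promoters. Of 6 partner genes (EYA1 to EYA4, DACH1 and DACH2) and 4 progenitor genes (SALL1, OSR1, CITED1 and MEOX1), 0 of 10 were called by the mean over CpGs, where 2.31% of 53244 promoters were called higher and 0.588% lower. Of these 10, 8 had a higher mean in dCas9+3A+HOXA5, as had 64.95% of all promoters, and the median difference was 1.67 points, beside 2.54 points over all promoters. Their levels ran from nearly unmethylated to mostly methylated. OSR1, an early kidney mesoderm factor, was methylated, with 78.9% and 73.5%, whereas SALL1, a zinc finger factor of the nephron progenitors, had 1.17% and 1.85%. DACH1 had 0.539% and 1.79% and EYA2 2.74% and 4.24%.

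EYA4, which encodes a co-activator phosphatase, had the lowest adjusted p of the list. In its promoter Neg had 12 of 331 methylated reads (2.09 to 6.23%) and dCas9+3A+HOXA5 had 44 of 167 (20.3 to 33.5%), higher by 16.1 to 30.0 points (adjusted p = 6.24e-11, Fisher's exact test). The means over 74 CpGs were 3.76% and 14.6%, so it was not called by the mean, whereas by summed reads it differed by 22.7 points and was called higher, as were 3.23% of promoters. On the adjusted p alone, 5.65% of all promoters passed as higher and 1.92% as lower. With a minimum of 3 reads its 20 CpGs differed by 34.6 points and it was called higher (adjusted p = 3.97e-14, Fisher's exact test), as were 2.17% of promoters under that minimum. CITED1, a transcriptional co-regulator of the same progenitors, had 108 of 468 and 87 of 228 methylated reads (adjusted p = 0.00120, Fisher's exact test) and means of 18.3% and 23.04%. DACH2 had the most negative difference in the means, 36.4% and 21.4% (adjusted p = 0.0343, Fisher's exact test). CITED1 and DACH2 lie on chromosome X and the other listed genes on autosomes. EYA1 had 6 CpGs, with 57.1% and 100% (adjusted p = 0.136, Fisher's exact test). EYA3 had 15.7% and 17.6%, and MEOX1 62.5% and 79.5% (adjusted p = 0.429 and 0.744, Fisher's exact test).

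**Figure D5:**
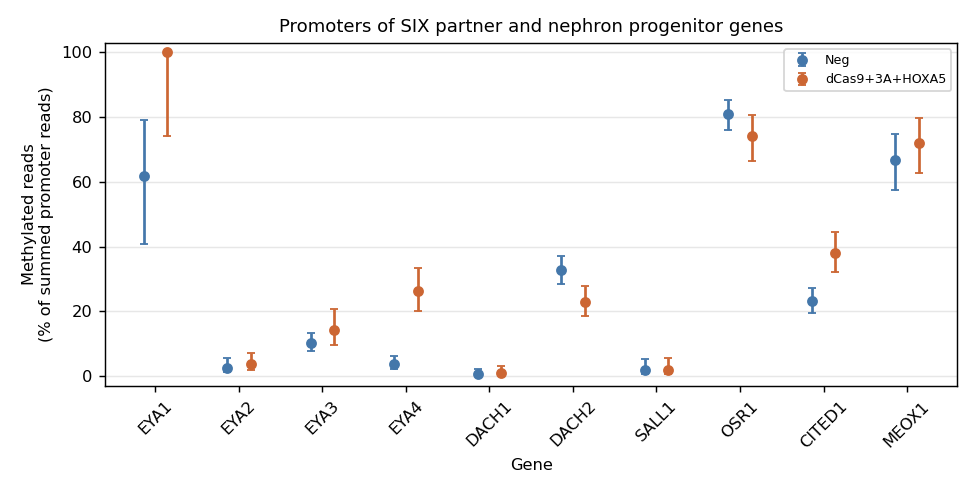
Share of methylated reads (y axis, % of summed promoter reads) for SIX-partner and nephron progenitor genes (x axis), in Neg (blue) and dCas9+3A+HOXA5 (orange), with 95% Wilson intervals that cover counting error only. They count CpGs on the same DNA molecule as independent and are too narrow. The intervals of the libraries lie apart at EYA4 and CITED1 (higher in dCas9+3A+HOXA5) and at DACH2 (lower), as they do for 10.8% of all promoters in the higher and 3.54% in the lower direction.

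Finally, 7 other genes start within the loci, and 0 of their promoters were called, where 2.31% of 53244 promoters were called higher and 0.588% lower. The promoter windows of SIX3-AS1 and DM1-AS overlap those of SIX3 and SIX5. Those of C14orf39 and ENSG00000258670 overlap each other, so the windows are not separate evidence. DM1-AS, antisense to DMPK, starts 1456 bp from SIX5, with 29 of 743 and 61 of 768 methylated reads (adjusted p = 0.0125, Fisher's exact test) and means of 6.57% and 12.6%. Its window contains the gene-body edge tile of SIX5 and most of the adjoining tile in the SIX5 body. It is therefore not separate from the values given for that edge. LINC01833, upstream of SIX3, had 75.1% and 83.6%. The lncRNA ENSG00000231156, upstream of SIX2, had 55.0% and 56.1%. C14orf39 and the lncRNA ENSG00000258670, which start in or beside the low tile downstream of SIX6, had 54.6% and 56.2%, and 48.8% and 53.8%. The lncRNA ENSG00000259605, which runs antisense through SIX5, had 63.7% and 69.4%. Adjusted p for these 5 ranged from 0.163 to 0.808 by Fisher's exact test.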

How the data were processed

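WGBS was analysed in 2 HEK293T libraries, 1 per group, with groups taken from the sample titles. According to the methods, the authors trimmed reads, aligned them to hg19 with BSMAP (version 2.90 in the submitters' processing notes) and called methylation per CpG with its ratio module. How duplicate and multiply aligned reads were handled was not given in the sources used here. Per the file headers, the deposited values are the count of reads with C and with C or T at each CpG, opposite-strand counts, an estimated count of C or T reads corrected for C-to-T variants, and the methylation fraction with its bounds. The methods name a minimum of 5 reads, but the files also list CpGs below it. Each CpG is listed once, at its plus-strand C.

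CpGs of chromosomes 1 to 22, X and Y with at least 1 read in both libraries were used, with GENCODE release 44 genes on GRCh37, which has the coordinates of hg19. A window's level is the mean deposited fraction over its CpGs. Windows with at least 5 such CpGs were tested by Fisher's exact test on C and remaining counts, adjusted over all windows of that kind, and single CpGs that reached 5 reads in each library likewise. A call needed an adjusted p under 0.01 together with more than 20 percentage points of difference. Intervals of shares are 95% Wilson intervals and those of differences combine them by Newcombe's method. The test was tried on simulated counts for promoters. Python 3.11.15, numpy 2.4.6, scipy 1.17.1, pandas 2.3.3 and matplotlib 3.10.9 were used.

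The named genes are the 5 members in every window, a list of 10 partner and progenitor genes, and genes that start within a member's body or flanks. The nearest-pattern genes were to be named for each called member promoter, of which there was none. DMPK and MEIOSIN, which overlap the SIX5 locus without starting in it, were named after the values were seen. The members and lists were chosen with earlier results of these data known. Alternatives were read minimums, summed reads, the uncorrected fraction, 1 CpG per 150-bp bin, thinned Neg reads, and other window and tile sizes. The adjusted p alone, the low stretches with their edges, the omission of 1 deeply read CpG, and summed reads for tiles and listed genes were added after the values were seen.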

Additional observations from a re-analysis of the deposited data

How the results depend on the processing

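No paired analysis was possible because neither group has a second library, and for that reason none could be left out. Of 135 differences of member windows under alternatives, 106 kept their direction and their side of the call limits, 27 changed sign, 1 passed the limits and 1, the SIX5 promoter with 1 CpG per 150-bp bin, was 0. Another 6 had too few CpGs, as had the promoters of EYA1, SALL1 and OSR1 with a minimum of 3 reads. Sign changes, in percentage points, were the following. With 2 kb either side of the start, the SIX2 promoter gave 0.534 and the SIX6 promoter 1.82, and with 0.5 kb SIX6 gave 0.261. A minimum of 3 reads gave 0.543 at the SIX3 promoter, 0.876 in the SIX2 body, 1.37 downstream of SIX2 and -0.681 at the DACH1 promoter. A minimum of 5 reads gave 0.557 at the SIX3 promoter, -2.86, -1.005 and -2.13 in the bodies of SIX3, SIX4 and SIX6, -5.42 upstream of SIX6 and 4.24 downstream of SIX2. Summed reads gave 12.5 and -6.18 in the bodies of SIX2 and SIX4, -6.07 upstream of SIX5 and 0.0826 downstream of SIX2. The uncorrected fraction gave -0.129 in the SIX3 body. With 1 CpG per 150-bp bin, the values were 4.62 at the SIX3 promoter, 5.04, -3.65 and -1.68 in the bodies of SIX2, SIX3 and SIX4, 1.61 and -5.18 upstream of SIX3 and SIX5, and -0.723 and -7.28 downstream of SIX3 and SIX6. With 10-kb flanks, upstream of SIX3 gave 2.42 and downstream of SIX2 0.706. None of these was called, and the cause was not tested.

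Counts of calls were 0 under the alternatives run, except as follows. With the adjusted p alone, 1 promoter, 1 body, 1 flank and 3 tiles of the members passed, as did 2 promoters of the partner and progenitor list (EYA4 and CITED1). With 10-kb flanks 1 flank was called, and 1 promoter of the partner and progenitor list, EYA4, with a minimum of 3 reads and by summed reads, the other alternatives run on that list. Among tiles, 2 were called by summed reads, 2 at 250 bp, 2 at 1000 bp (1 without the CpG that Neg read most downstream of SIX5), and 1 each with minimums of 3 and 5 reads. Mean reads per listed CpG were under 5 at every locus, which limits the precision at single CpGs.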
